A study of Mus musculus with 46 samples.

Results

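The genes described here encode enzymes that handle adenine nucleotides and phosphocreatine in skeletal muscle. The 10 members were *Ampd1*, *Ampd2*, *Ampd3*, *Ak1*, *Adk*, *Adssl1*, *Adsl*, *Nt5c1a*, *Ckm* and *Ckmt2*. They were found through their Ensembl gene identifiers and make up 10 of 17514 genes in the count table of the orchidectomy (ORX) experiment and 10 of 16987 genes in that of the dihydrotestosterone (DHT) experiment. *Ampd1* was chosen on its values in these same libraries, so its levels and fold changes are a description and carry no test. The other 9 members are enzymes of the same reactions or of neighbouring ones and were tested. They too were chosen with earlier results of these data known, and their q values do not allow for that choice.

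Bulk RNA sequencing compared wild-type (WT) and *Actn3* knockout (KO) C57BL6 mice, KO mice lacking α-actinin-3, a protein of the Z-disc of fast muscle fibers. In the ORX experiment, gastrocnemius muscle was taken from males 12 weeks after surgery at an age of 8 to 10 weeks, in which the testes were removed or, in sham controls, exposed and left in place. The 4 groups were WT-sham (6 libraries), WT-ORX (6), KO-sham (6) and KO-ORX (5 of the 6 samples described). In the DHT experiment, spinalis muscle of the back was taken from females that had carried silastic tubing under the skin for 6 weeks from an age of 4 to 5 weeks, either empty or with 10 mg of DHT, a potent androgen. The groups were WT-Empty (5 libraries), WT-DHT (6), KO-Empty (5) and KO-DHT (6). Sex, muscle and age differ between the experiments, so levels were compared within an experiment only. Counts per library ran from 26.7 to 55.4 M in the ORX experiment and from 34.8 to 53.9 M in the DHT experiment. All 6 KO-sham libraries, at 29.5 to 37.5 M, were smaller than the smallest WT-sham library at 43.4 M.

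AMP deaminases convert AMP into IMP and ammonia, and in working muscle this removes the AMP that builds up when ATP is used quickly. Adenylosuccinate synthase and adenylosuccinate lyase turn IMP back into AMP with the release of fumarate, which closes the purine nucleotide cycle. Adenylate kinase and creatine kinase buffer ATP on a faster time scale, the first by rearranging adenine nucleotides and the second by moving phosphate between creatine and ADP. Adenosine kinase and cytosolic nucleotidases link AMP to adenosine.

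*Actn3* itself checked the genotype labels. Levels are given as CPM, a library's counts brought to a common total after TMM scaling. The mean level of *Actn3* was 6622 CPM in WT-sham, 8867 in WT-ORX, 9669 in WT-Empty and 7104 in WT-DHT, with no WT library below 5977 CPM. Mean levels in KO were 45.7, 45.3, 69.6 and 68.0 CPM in sham, ORX, Empty and DHT, and no KO library exceeded 83.2 CPM. Every library thus matched its genotype label. The genotype effect in sham muscle was a log2 fold change of −7.18 (SE 0.116, q = 2.7e-25, below the WT range in 6 of 6 KO libraries), where q is edgeR's p adjusted over all genes of the comparison. In WT muscle *Actn3* rose with ORX by a log2 value of 0.42 (SE 0.0883, q = 0.00199, above the sham range in 6 of 6 libraries) and fell with DHT, at −0.45 (SE 0.0902, q = 8.1e-04, below the Empty range in 6 of 6 libraries).

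The muscle identity of the samples was read from 10 fiber markers, *Ckm* among them. *Myh4*, a fast myosin heavy chain, was the most abundant at 45991 CPM in gastrocnemius and 71982 CPM in spinalis. The least abundant, the slow troponin *Tnnt1*, stood at 85.1 and 80.5 CPM, and no marker was at 0 in any library. These are whole-muscle samples, in which fewer cells of a type and less RNA per cell cannot be told apart.

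The members spanned a wide range of abundance, which was compared per kilobase of annotated exon. *Ckm*, the cytosolic creatine kinase, was the most abundant at a mean of 4255 CPM per kb in gastrocnemius and 4756 in spinalis. *Ckmt2*, the sarcomeric mitochondrial creatine kinase, followed at 598 and 624 CPM per kb, then *Ak1*, the muscle adenylate kinase, at 540.4 and 589. *Ampd1*, the muscle AMP deaminase, came next at 333 and 313 CPM per kb, ahead of *Adssl1*, the muscle adenylosuccinate synthase, at 203 and 248. Below these came *Adsl*, *Adk*, *Nt5c1a*, *Ampd3* and *Ampd2*, and the order of all 10 was the same in both muscles. *Ampd2* was the least abundant at 0.759 and 0.871 CPM per kb, and even so no library held fewer than 76.0 of its counts.

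*Ampd1* was lowest in intact WT males among the gastrocnemius groups. WT-sham libraries lay between 844 and 1051 CPM (median 929), WT-ORX libraries between 1162 and 1374 (median 1303) and KO-sham libraries between 1056 and 1349 (median 1288). The KO-ORX libraries read 1198, 1234, 1340.4, 1295 and 1224 CPM. All WT-sham libraries were thus below every library of the other 3 groups, which overlapped one another. Group means were 937 ± 76.9 CPM (SD, n = 6) in WT-sham, 1235 ± 120.3 (n = 6) in KO-sham, 1258 ± 58.0 (n = 5) in KO-ORX and 1299.7 ± 75.8 (n = 6) in WT-ORX. As a description, ORX against sham gave 0.47 on the log2 scale in WT (SE 0.0616, a 1.39-fold level) and 0.03 in KO (SE 0.0645). The KO to WT log2 fold change was 0.40 in sham muscle (SE 0.0616) and −0.05 after ORX (SE 0.0645). The difference of the treatment effects between genotypes was −0.44 (SE 0.0893). These comparisons share control libraries and were part of what chose the gene.

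In spinalis the androgen-treated WT muscles held the lowest *Ampd1* levels. WT-DHT libraries lay between 799.8 and 987 CPM (median 854), whereas the WT-Empty libraries read 1054, 1364, 1456, 1224 and 1257 CPM. The KO-Empty libraries read 1128, 1320.2, 1098, 986 and 1249.6 CPM, and KO-DHT libraries lay between 1044 and 1237 (median 1121). The WT-DHT libraries were below all WT-Empty and KO-DHT libraries, and the other 3 groups overlapped. The mean under DHT was 879 ± 78.9 CPM (SD, n = 6) in WT and 1130.2 ± 81.9 (n = 6) in KO, and with empty implants 1271 ± 152 (n = 5) in WT and 1157 ± 131 (n = 5) in KO. As a description, the log2 fold change with DHT was −0.53 in WT (SE 0.0851, a 0.692-fold level) and −0.03 in KO (SE 0.0853). The KO to WT log2 fold change was −0.14 with empty implants (SE 0.0891) and 0.36 with DHT (SE 0.0814), and the difference of the treatment effects was 0.50 (SE 0.121). The low group was therefore WT-sham in gastrocnemius and WT-DHT in spinalis, and the KO groups of each muscle overlapped.

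**Figure D1:**
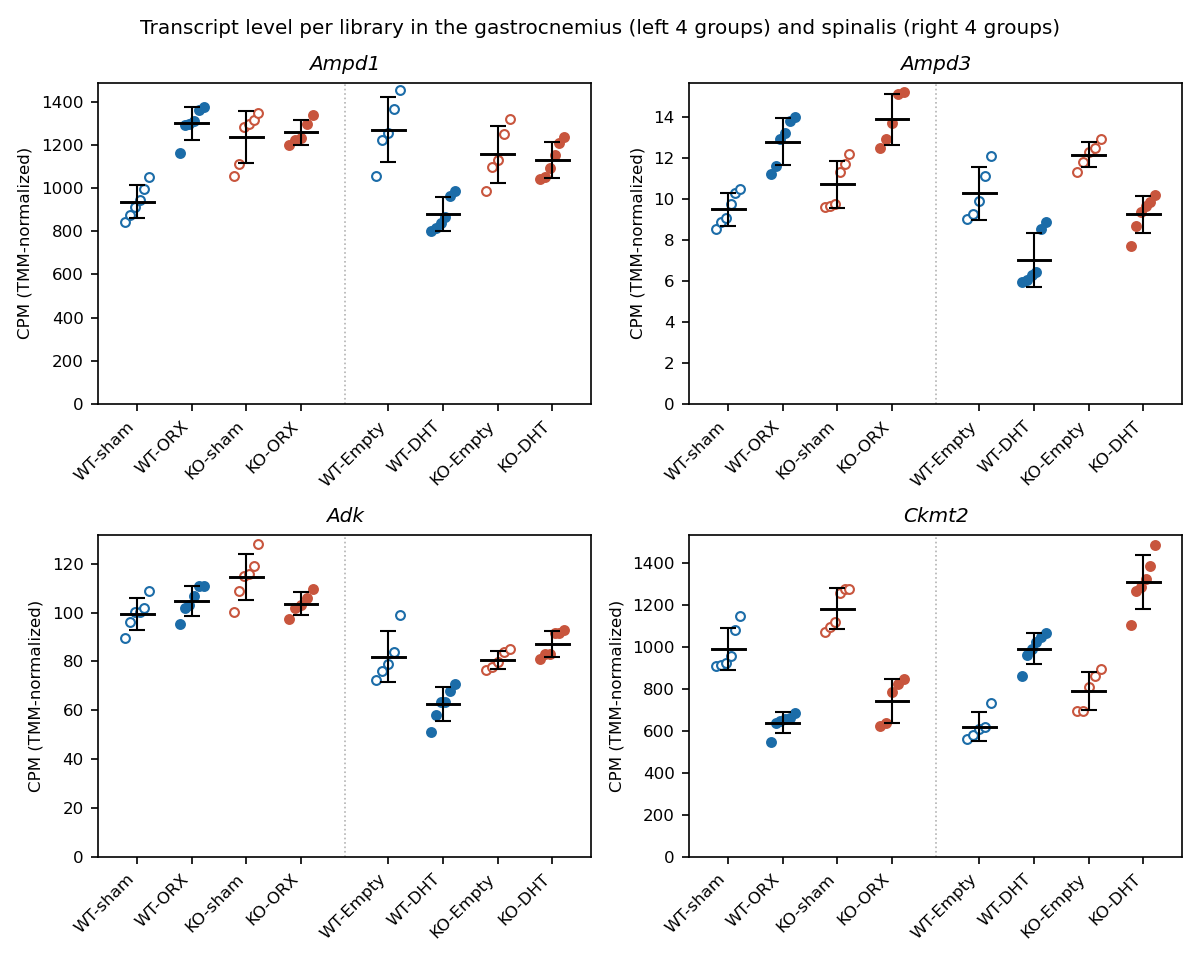
Levels of *Ampd1*, *Ampd3*, *Adk* and *Ckmt2* in CPM in every library of the 8 groups, with WT in blue, KO in red, control groups as open and treated groups as filled points, the group mean as a horizontal bar and the SD as error bars. *Ampd1* is low in WT-sham (mean 937 CPM) and WT-DHT (mean 879 CPM), whereas *Ckmt2* is lower in both ORX groups and higher in both DHT groups than in their controls.

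*Ampd3*, the AMP deaminase first known from red blood cells, was higher after ORX than in sham muscle in both genotypes. WT-sham libraries lay between 8.53 and 10.5 CPM (median 9.40) and WT-ORX libraries between 11.2 and 14.0 (median 13.1). KO-sham libraries lay between 9.61 and 12.2 CPM (median 10.5), and the KO-ORX libraries read 15.1, 12.5, 12.9, 13.7 and 15.2. ORX libraries were above all sham libraries of their genotype. *Ampd3* rose with ORX at a log2 fold change of 0.43 in WT (SE 0.0778, q = 4.3e-04, 6 of 6 libraries above the sham range) and 0.38 in KO (SE 0.0823, q = 0.00329, 5 of 5 above). The interaction was −0.05 (95% interval −0.28 to 0.18, q = 0.926). The KO call was lost when the 2 KO groups were fitted alone (q = 0.0142) and without KO-sham replicate 2 (0.35, q = 0.0104) or 3 (0.35, q = 0.0102), or KO-ORX replicate 1 (0.35, q = 0.0121) or 5 (0.34, q = 0.0143).

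With DHT the direction of *Ampd3* was the opposite. The WT-Empty libraries read 9.03, 11.1, 9.90, 12.1 and 9.27 CPM, and WT-DHT libraries lay between 5.93 and 8.87 (median 6.38). The KO-Empty libraries read 12.3, 11.8, 11.3, 12.9 and 12.5 CPM, and KO-DHT libraries lay between 7.68 and 10.2 (median 9.53). DHT libraries were below all Empty libraries of their genotype. *Ampd3* fell with DHT in WT at −0.55 (SE 0.109, q = 6.5e-04, 6 of 6 libraries below the Empty range). In KO the value was −0.40 (SE 0.108, 6 of 6 below), which missed the threshold at q = 0.0196 and passed it in DESeq2 (q = 0.00739) and when the KO groups were fitted alone (q = 0.00912). The interaction was 0.15 (95% interval −0.16 to 0.47, q = 0.702), so a difference in response between genotypes was not shown.

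Between genotypes, *Ampd3* passed the test only among the DHT groups, at 0.39 (SE 0.105, q = 0.0087, 6 of 6 KO-DHT libraries above the WT-DHT mean and 4 above its range). The values were 0.17 in sham (q = 0.188, 6 of 6 above the WT mean), 0.12 after ORX (q = 0.464, 4 of 5) and 0.24 with empty implants (q = 0.198, 5 of 5), none of which passed. The call among the DHT groups was lost with library-size scaling (q = 0.0136), with only the groups compared (q = 0.0277) and in limma-voom, where q was 0.01 after rounding and just above the threshold before it. It was also lost in 14 of 22 fits that each left out 1 library, at log2 values of 0.35 to 0.41 and q up to 0.0259, namely without WT-DHT 8KR, 34KR, 39KR or 50KR, KO-DHT 6KR, 25KR, 40KR, 63KR or 65KR, WT-Empty 7KR, or KO-Empty 17KR, 33KR, 62KR or 64KR. Mean *Ampd3* levels ran in the order WT-sham, KO-sham, WT-ORX and KO-ORX, from 9.50 to 13.9 CPM, and WT-DHT, KO-DHT, WT-Empty and KO-Empty, from 7.02 to 12.2 CPM. Neighbours in either order overlapped.

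*Ampd1* made up nearly all of the AMP deaminase RNA in each group. Its share of the summed CPM per kb of the 3 genes was between 99.1% and 99.3% as a group mean, with *Ampd3* at 0.506% to 0.692% and *Ampd2* at 0.186% to 0.376%. *Ampd2*, the form known from liver and most other tissues, ranged from 2.54 to 5.31 CPM in gastrocnemius and from 3.27 to 5.76 CPM in spinalis and overlapped between all groups compared. Its largest genotype value was −0.31 in sham muscle (SE 0.145, q = 0.192, 5 of 6 KO libraries below the WT mean). Exons of *Ampd3* share 195 bases with *Rnf141* on the opposite strand, a gene with a mean of 1835 counts against 485 for *Ampd3* in gastrocnemius. They also share 196 bases with *B430319F04Rik* on the opposite strand and 83 with *Gm47282*, a miRNA gene, on the same strand. Of *Ampd2*, 434 exon bases lie opposite *Gm12500*. *B430319F04Rik*, *Gm47282* and *Gm12500* are not in the count tables. *Ckmt2* shares 84 exon bases with *1700119I11Rik* on the opposite strand, at a mean of 45.8 counts against 36338. Of 75-base stretches in transcripts, 10 of *Ampd3* (0.178%) and 21 of *Adsl* (0.338%) also occur in other genes, and 0 of the other 8 members do. For *Ampd3* the only other gene is *Gm47282*, which overlaps its exons. The strand setting of the counting was not stated, so reads of such antisense partners cannot be told apart from those of the member.

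For the other limb of the cycle, *Adssl1* fell with ORX in KO gastrocnemius. Libraries lay between 425 and 556 CPM in KO-sham (median 456) and read between 367 and 419 CPM in KO-ORX, with all 5 KO-ORX libraries below the KO-sham range. The log2 fold change was −0.24 (SE 0.0567, q = 0.00514). In WT, with 411 to 455 CPM in sham and 381 to 439.6 after ORX, it was −0.11 (SE 0.0538, q = 0.215, 5 of 6 libraries below the sham mean), and the interaction of −0.13 (SE 0.0781, q = 0.616) did not separate the genotypes. The KO call was lost with library-size scaling (−0.13, q = 0.0846), with the 2 KO groups alone (q = 0.0351) and without KO-ORX replicate 1 (−0.22, q = 0.02), 2 (−0.22, q = 0.0193) or 5 (−0.25, q = 0.0104). In spinalis *Adssl1* averaged 434 CPM in WT-Empty, 535 in WT-DHT, 542 in KO-Empty and 564 in KO-DHT. The largest of these differences, 0.32 for KO against WT with empty implants (SE 0.122, q = 0.105, 5 of 5 KO libraries above the WT mean), did not pass.

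*Adsl*, the lyase of the cycle and of purine synthesis, was higher in KO than in WT muscle under DHT. WT-DHT libraries lay between 108 and 137 CPM (median 117) and KO-DHT libraries between 139 and 165 (median 149), with no overlap. The log2 fold change was 0.32 (SE 0.0792, q = 0.00476, 6 of 6 above the WT-DHT range). The DHT effect was −0.12 in WT (SE 0.0829, q = 0.392, 5 of 6 libraries below the Empty mean) and 0.25 in KO (SE 0.0833, q = 0.0518, 6 of 6 above it), and their difference of 0.37 (SE 0.117, 95% interval 0.12 to 0.61) missed its threshold at q = 0.0956. That interaction passed with library-size scaling (0.42, q = 0.0269) and without WT-DHT 50KR (0.41, q = 0.0488). The genotype call under DHT was lost without WT-DHT 5KR (0.30, q = 0.0135), 15KR (0.30, q = 0.0137) or 34KR (0.30, q = 0.0152) and without KO-DHT 6KR (0.32, q = 0.0101), 25KR (0.29, q = 0.0147) or 40KR (0.31, q = 0.0112). In gastrocnemius *Adsl* ranged from 108 to 145 CPM and passed no test. Its largest value there was 0.15 for KO against WT in sham (SE 0.0489, q = 0.045, 6 of 6 above the WT mean).

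*Adk*, which returns adenosine to AMP, was the member whose response to DHT differed between genotypes by test. The WT-Empty libraries read 76.1, 98.9, 83.7, 78.8 and 72.5 CPM, and WT-DHT libraries lay between 51.1 and 70.8 (median 63.3). The KO-Empty libraries read 76.6, 83.7, 79.8, 77.8 and 85.0 CPM, and KO-DHT libraries lay between 80.9 and 92.9 (median 87.3). WT-DHT libraries were below those of all 3 other groups, which overlapped. The mean under DHT was 62.4 ± 7.02 CPM (SD, n = 6) in WT and 87.2 ± 5.33 (n = 6) in KO, and with empty implants it was 82.0 ± 10.3 (n = 5) in WT and 80.6 ± 3.65 (n = 5) in KO. *Adk* fell with DHT in WT at −0.39 (SE 0.0789, q = 7.3e-04, 6 of 6 libraries below the Empty range), whereas the value in KO was 0.11 (SE 0.079, q = 0.403, 6 of 6 above the Empty mean). The interaction was 0.51 (SE 0.112, 95% interval 0.28 to 0.74, q = 0.00913), and it passed in every alternative fit and with every library left out, at 0.43 to 0.55. KO exceeded WT under DHT by 0.48 (SE 0.0755, q = 4.7e-05, 6 of 6 above the WT range) and differed by −0.03 with empty implants (SE 0.0825, q = 0.897, 3 of 5 below the WT mean).

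In gastrocnemius *Adk* was less variable. Its means were 99.6 ± 6.59 CPM (SD, n = 6) in WT-sham, 103 ± 4.72 (n = 5) in KO-ORX, 105 ± 6.02 (n = 6) in WT-ORX and 114 ± 9.30 (n = 6) in KO-sham, and neighbours in this order overlapped. KO against WT in sham was 0.20 (SE 0.0546, 6 of 6 above the WT mean), which missed the threshold at q = 0.0172. It passed in DESeq2 (q = 0.00464), without KO-sham replicate 1 (0.23, q = 0.00405) and without WT-sham replicate 2 (0.23, q = 0.0089). The response to ORX was 0.08 in WT (q = 0.464, 5 of 6 above the sham mean) and −0.15 in KO (q = 0.109, 5 of 5 below it). The difference of these effects was −0.22 (SE 0.0791, q = 0.33) and was not called.

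*Nt5c1a*, a cytosolic nucleotidase that releases adenosine from AMP, and *Ak1* passed no test. *Nt5c1a* ranged from 6.80 to 12.6 CPM in gastrocnemius and from 5.76 to 9.99 CPM in spinalis. With DHT it was higher by 0.38 in KO (SE 0.12, q = 0.0398), where 6 of 6 KO-DHT libraries exceeded the KO-Empty range, and by 0.30 in WT (SE 0.12, q = 0.0823, 5 of 6 above the Empty mean). With ORX it was −0.30 in KO (SE 0.0954, q = 0.0418, 5 of 5 below the sham mean) and −0.08 in WT (SE 0.0889, q = 0.687, 4 of 6 below). *Ak1* ranged from 1230.3 to 1575 CPM in gastrocnemius and from 1161 to 1976 CPM in spinalis. Its DHT values were 0.21 in WT (SE 0.0847, q = 0.0964, 4 of 6 above the Empty mean) and 0.24 in KO (SE 0.0847, q = 0.0731, 6 of 6 above), and with ORX in KO it was −0.15 (SE 0.0481, q = 0.0509, 5 of 5 below the sham mean).

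In both genotypes *Ckmt2* was lower with ORX in gastrocnemius and higher with DHT in spinalis. WT-sham libraries lay between 910.3 and 1149 CPM (median 939.8) and WT-ORX libraries between 546 and 685 (median 652). KO-sham libraries lay between 1072 and 1274 CPM (median 1189), and the KO-ORX libraries read 783, 820.3, 848, 638 and 622. Both ORX groups were below both sham groups. *Ckmt2* fell with ORX at −0.63 in WT (SE 0.0785, a 0.646-fold level, q = 2.3e-06, 6 of 6 libraries below the sham range) and −0.67 in KO (SE 0.083, 0.628-fold, q = 4.0e-06, 5 of 5 below). The interaction was −0.04 (95% interval −0.27 to 0.19, q = 0.944).

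With DHT *Ckmt2* rose in both genotypes. The WT-Empty libraries read 558, 732, 609, 581 and 619 CPM, and WT-DHT libraries lay between 863 and 1068 (median 1008). The KO-Empty libraries read 693, 695, 859, 807 and 892 CPM, and KO-DHT libraries lay between 1106 and 1486 (median 1304). The DHT libraries were above all Empty libraries of their genotype. The log2 fold change was 0.68 in WT (SE 0.0862, 1.6-fold, q = 2.3e-06, 6 of 6 above the Empty range) and 0.73 in KO (SE 0.0863, 1.66-fold, q = 3.2e-06, 6 of 6 above), with an interaction of 0.05 (95% interval −0.20 to 0.30, q = 0.895). These 4 treatment calls passed in every alternative fit and with every library left out.

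A genotype difference in *Ckmt2* passed under DHT alone, at 0.40 (SE 0.0814, q = 8.7e-04, 6 of 6 KO-DHT libraries above the WT-DHT range). The KO to WT values in the other 3 settings were 0.26 in sham (q = 0.033, 6 of 6 above the WT mean), 0.22 after ORX (q = 0.122, 3 of 5) and 0.35 with empty implants (q = 0.0138, 5 of 5). The value with empty implants passed in DESeq2 (q = 0.00387), with library-size scaling (q = 0.0043) and without WT-Empty 4KR (0.42, q = 0.00412), KO-Empty 17KR (0.39, q = 0.00948) or KO-Empty 33KR (0.40, q = 0.00818). Mean levels ran from 639 ± 48.1 CPM (SD, n = 6) in WT-ORX through 742 ± 105 (n = 5) in KO-ORX and 989 ± 101 (n = 6) in WT-sham to 1182 ± 96.5 (n = 6) in KO-sham. In spinalis they ran from 619.9 ± 67.2 CPM (n = 5) in WT-Empty through 789 ± 91.9 (n = 5) in KO-Empty and 992 ± 74.1 (n = 6) in WT-DHT to 1308 ± 127 (n = 6) in KO-DHT. Among neighbours in these orders only KO-ORX and WT-sham, and WT-DHT and KO-DHT, did not overlap.

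*Ckm* was lower in KO than in WT muscle after ORX. WT-ORX libraries lay between 11654 and 17522 CPM (median 13785) and the KO-ORX libraries between 10389.7 and 12005, with 4 of 5 below the WT-ORX range. The log2 fold change was −0.37 (SE 0.0785, q = 0.00269, 5 of 5 below the WT-ORX mean), against −0.06 in sham (SE 0.0745, q = 0.698, 5 of 6 below the WT mean). The interaction of −0.31 (95% interval −0.54 to −0.09) did not pass, at q = 0.313. The call was lost with only the groups compared (q = 0.0265) and without KO-ORX replicate 1 (−0.35, q = 0.0115) or 2 (−0.36, q = 0.0108). The WT response to ORX was 0.23 (SE 0.0745, q = 0.0535, 5 of 6 above the sham mean) and passed with library-size scaling (0.26, q = 0.00574) and without WT-ORX replicate 2 (0.28, q = 0.00937). In spinalis *Ckm* averaged 14707 CPM in WT-Empty, 14335 in WT-DHT, 12085 in KO-Empty and 14286 in KO-DHT and passed no test. Its lowest group there gave −0.28 for KO against WT with empty implants (SE 0.101, q = 0.0814, 5 of 5 below the WT mean). An antisense gene, *A930016O22Rik*, shares 451 exon bases with *Ckm*, with a mean of 1090.1 counts against 522794 for *Ckm* in gastrocnemius.

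The balance of the muscle creatine kinases moved with treatment as *Ckmt2* did. Its share of the summed CPM per kb of *Ckm* and *Ckmt2* in gastrocnemius was lowest in WT-ORX, at a mean of 8.13% (6.76% to 9.70% across libraries), followed by KO-ORX at 11.6% (9.81% to 13.2%). It was 13.6% in WT-sham (12.7% to 15.2%) and 16.4% in KO-sham (14.5% to 17.7%). In spinalis WT-Empty had the lowest mean share at 7.65% (7.03% to 8.17%), and KO-Empty had 11.4% (9.43% to 13.7%). The share under DHT was 12.0% in WT (11.1% to 13.2%) and 15.2% in KO (14.2% to 17.6%). The mean share was higher in each sham group than in the matching ORX group, and higher in each DHT group than in the matching Empty group. It was also higher in each KO group than in the matching WT group. The KO to WT log2 values of *Ckm* were −0.06 in sham, −0.37 after ORX, −0.28 with empty implants and −0.005 under DHT. Those of *Ckmt2* were 0.26, 0.22, 0.35 and 0.40. No test was run on the share.

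**Figure D2:**
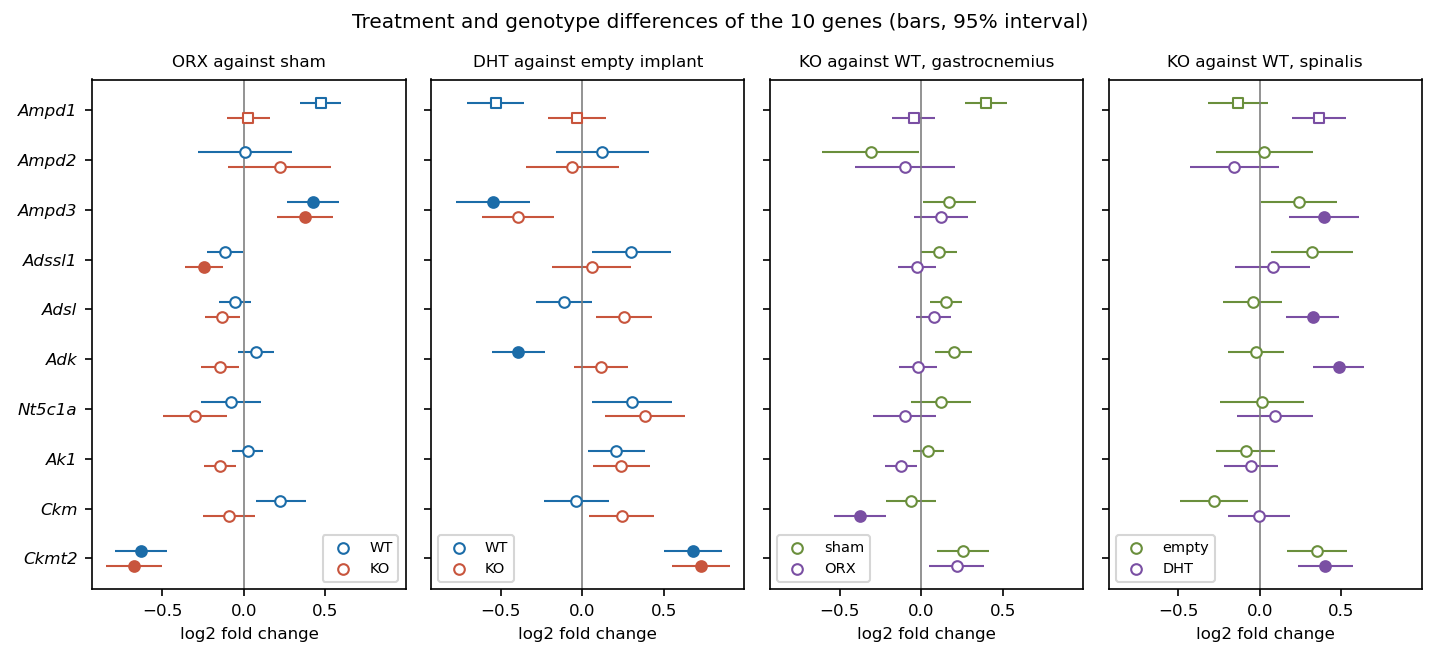
Log2 fold changes of the 10 members with 95% intervals, in panels for the treatment effect and the genotype effect in each experiment, with filled circles for values past q ≤ 0.01, open circles for values not past it and squares for *Ampd1*, which was not tested. *Ampd1* was chosen on these values, so its intervals describe spread and cannot serve as a test against 0. *Ckmt2* stands at −0.63 and −0.67 with ORX and at 0.68 and 0.73 with DHT in WT and KO, and *Ampd3* lies on the other side of 0 in each.

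Counted over the 9 tested members, calls at q ≤ 0.01 by edgeR in gastrocnemius came to 2 with ORX in WT (*Ckmt2* and *Ampd3*), where 5.45% of all 17514 genes were called. With ORX in KO they came to 3 (*Ckmt2*, *Ampd3* and *Adssl1*), where 5.57% of all genes were called. With only the groups compared 1 of 9 was called there, and from 1 to 3 with 1 library left out. For genotype in sham muscle edgeR called 0 of 9, where 5.3% of all genes were called, with 5 of 9 members and 23.3% of all genes at an unadjusted p under 0.05, 1 call by DESeq2 and 0 by limma-voom. For genotype after ORX 1 of 9 was called (*Ckm*), where 3.8% of all genes were called. The genotype by ORX interaction, at q ≤ 0.05, called 0 of 9 in edgeR, and 0 members by DESeq2 or limma-voom. At an unadjusted edgeR p under 0.05 were 3 of 9 members and 9.6% of all genes. Of all genes edgeR called 0.0228%, or 4 genes. With 1 library left out that count ran from 2 to 38, and it was 127 in DESeq2 and 10 in limma-voom. The members were chosen with earlier results of these data known, so the shares of all genes stand beside their counts as a description. The median log2 fold change of the 9 members was 0.01 with ORX in WT, −0.15 with ORX in KO, 0.12 and −0.02 for genotype in sham and ORX and −0.13 for the interaction. The matching medians of all genes were 0.01, 0.01, −0.01, 0.01 and 0.00.

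In spinalis, 3 of 9 members were called with DHT in WT (*Ckmt2*, *Adk* and *Ampd3*), where 11.3% of all 16987 genes were called, and 1 of 9 with DHT in KO (*Ckmt2*), where 4.62% were called. For genotype with empty implants edgeR called 0 of 9, where 4.25% of all genes were called, with 4 of 9 members and 23.4% of all genes at an unadjusted p under 0.05, 1 call by DESeq2 and 0 by limma-voom. For genotype under DHT 4 of 9 were called, all higher in KO (*Adk*, *Ckmt2*, *Adsl* and *Ampd3*), where 11.6% of all genes were called. From 2 to 4 members were called there with 1 library left out, and 3 in limma-voom. The genotype by DHT interaction called 1 of 9 (*Adk*) at q ≤ 0.05, where 3.24% of all genes were called. The DHT response in WT and the genotype effect under DHT both use the same 6 WT-DHT libraries. The median log2 fold change of the 9 members was 0.12 with DHT in WT, 0.24 with DHT in KO, 0.01 and 0.09 for genotype in Empty and DHT and 0.08 for the interaction. The matching medians of all genes were −0.01, −0.01, 0.01, 0.01 and −0.01.

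The wider purine and creatine pathways were followed through 43 other genes on 7 lists, covering the purine nucleotide cycle, adenylate kinases, purine synthesis, salvage and breakdown, the branch from IMP to GMP, AMP-activated protein kinase (AMPK) subunits and creatine supply. With ORX in WT, edgeR called 4 of 43, with 2 higher and 2 lower. *Gamt*, which makes creatine, rose (0.53, SE 0.112, q = 0.00208, 6 of 6 above the sham range), as did *Gmpr*, which returns GMP to IMP (0.28, SE 0.0591, q = 0.00201, 6 of 6). *Paics*, an enzyme of purine synthesis, fell (−0.23, SE 0.0457, q = 0.00142, 6 of 6 below). *Guk1*, the guanylate kinase, was the only call of 43 with ORX in KO (−0.38, SE 0.0543, q = 3.1e-05, 5 of 5 below). It fell in WT as well (−0.21, SE 0.0507, q = 0.00629, 6 of 6 below), a call lost with thinned counts (q = 0.0209) and in 9 of 23 fits that each left out 1 library. For genotype, 3 of 43 were called in sham, all higher in KO (*Prkag3*, *Ak4* and *Prps1*), and 3 of 43 after ORX, with *Ak4* higher and *Prkab2* and *Slc6a8*, the creatine transporter, lower. The calls of *Prkag3* and *Prps1* were lost with library-size scaling (q = 0.0136 and 0.0144) and without KO-sham replicate 1 or 3. Those of *Prkab2* and *Slc6a8* were lost with library-size scaling (q = 0.0157 and 0.0389), with only the groups compared (q = 0.0135 and 0.0129) and without KO-ORX replicate 1 or 2. *Prps1* was also lost with only the groups compared (q = 0.0166) and in 7 of 23 fits that each left out 1 library, and *Slc6a8* in 5 of 23. The interaction with ORX called 0 of 43 in edgeR, with 6 at an unadjusted p under 0.05 (9.6% of all genes), 1 call by DESeq2 and 0 by limma-voom.

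In the DHT experiment, DHT in KO gave 1 call among the 43 genes in edgeR, 3 in DESeq2 and 2 in limma-voom. DHT in WT gave 7 calls in edgeR, of which 6 fell. Of the 7, *Ak3*, which fell, and *Paics*, which rose, lost their calls with library-size scaling (q = 0.0128 and 0.0804), with only the groups compared (q = 0.0171 and 0.0358) and in 12 and 6 of 22 fits that each left out 1 library. *Ak4*, a mitochondrial matrix adenylate kinase, fell in both genotypes (−1.24 in WT, SE 0.203, q = 7.5e-05, and −1.13 in KO, SE 0.197, q = 4.6e-04, 6 of 6 below the Empty range in each). It averaged 4.29 CPM in WT-Empty, 1.81 in WT-DHT, 7.05 in KO-Empty and 3.22 in KO-DHT. *Prkag3*, the AMPK gamma subunit of fast muscle, fell with DHT in WT (−0.77, SE 0.128, q = 9.0e-05, 6 of 6 below) and carried a genotype by DHT interaction of 1.09 (SE 0.182, q = 6.3e-04). Its means were 144 CPM in WT-Empty, 84.8 in WT-DHT, 173 in KO-Empty and 216 in KO-DHT. *Prkab2*, a beta subunit, also fell in WT (−0.31, SE 0.065, q = 0.00123, 6 of 6 below), with an interaction of 0.47 (SE 0.0922, q = 0.00303). These were the 2 of 43 genes with a called interaction. Genotype under DHT gave 7 calls, of which 5 were higher in KO, led by *Prkag3* (1.35, SE 0.124, q = 2.0e-08, 6 of 6 above the WT-DHT range) and *Prps1*, which makes the ribose phosphate for purines (0.40, SE 0.0702, q = 1.8e-04, 6 of 6 above). Of these 7, *Nt5c3* (q = 0.0459) and *Paics* (q = 0.0108) lost their calls with library-size scaling. Genotype with empty implants gave 4 calls in edgeR, with *Gamt* higher (0.73, SE 0.137, q = 0.00124, 5 of 5 above) and *Prkab2*, *Ak3* and *Ppat* lower. DESeq2 called 7 of 43 there and limma-voom 4. With only the groups compared, the calls of *Prkab2* (q = 0.0369), *Ak3* (q = 0.0263) and *Ppat* (q = 0.0164) were lost. Library-size scaling lost those of *Ak3* (q = 0.0895) and *Ppat* (q = 0.0161), and leaving out 1 library lost *Ak3* in 3 and *Ppat* in 14 of 22 fits.

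As shares of the 43 genes, with the share of all genes in brackets, the calls were 9.3% with ORX in WT (5.45%), 2.33% with ORX in KO (5.57%), and 6.98% for genotype both in sham (5.3%) and after ORX (3.8%), where 2 of the 3 calls in each were lost with library-size scaling. In spinalis they were 16.3% both with DHT in WT (11.3%) and for genotype under DHT (11.6%), 2.33% with DHT in KO (4.62%), 9.3% for genotype with empty implants (4.25%) and 4.65% for the genotype by DHT interaction (3.24%). *Adss*, the adenylosuccinate synthase of most tissues and the only non-member of the purine nucleotide cycle list, was called in none. *Ak4* was higher in KO than in WT in sham (0.89, SE 0.199, q = 0.00367, 6 of 6 above the WT range) and after ORX (1.10, SE 0.199, q = 5.8e-04, 5 of 5 above). Of these, the sham value missed the threshold in limma-voom (q = 0.0136), as did the *Ak4* genotype call under DHT (0.82, q = 0.00404 in edgeR with 6 of 6 above, q = 0.0225 in limma-voom). Each of these 2 calls was also lost in 4 of the fits that left out 1 library. With library-size scaling the calls of *Paics* with ORX in WT (q = 0.0406) and of *Guk1* with ORX in WT (q = 0.101) were lost.

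Markers of other cell types were read beside these results on 6 lists, with no gene at 0 in any library. The summed adipocyte markers (6 genes, *Fabp4* the most abundant in gastrocnemius at 204 CPM and *Cfd* in spinalis at 283 CPM) averaged 771.3 CPM in WT-Empty (452.2 to 1028 across libraries), 489.4 in WT-DHT (297.6 to 770.8), 842 in KO-Empty (549.8 to 1000) and 653.7 in KO-DHT (409.2 to 1048). Of these 6, *Cfd* alone was called with DHT in WT (−1.20, SE 0.32, q = 0.00898, 6 of 6 below the Empty mean), with 3 of 6 at an unadjusted p under 0.05. The summed endothelial markers (5 genes, *Pecam1* the most abundant) averaged 164.4 CPM in WT-Empty (140.6 to 183.5), 208.4 in WT-DHT (179.6 to 232.8), 184 in KO-Empty (161.3 to 208) and 213.8 in KO-DHT (169.8 to 238.4), and *Pecam1* rose with DHT in WT (0.33, SE 0.0725, q = 0.0019, 6 of 6 above). The fibroblast sum (5 genes) averaged 1462 CPM in WT-Empty (1179 to 1797), 1830 in WT-DHT (1364 to 2588), 1773 in KO-Empty (1405 to 2545) and 1704 in KO-DHT (1450 to 2005), and its genes went both ways, with 2 of 5 above 0 with DHT in each genotype. *Dcn* rose with DHT in WT (0.54, SE 0.114, q = 0.00121, 6 of 6 above) and in KO (0.51, SE 0.114, q = 0.00522, 6 of 6 above), whereas *Pdgfra* fell in WT (−0.44, SE 0.0841, q = 4.5e-04, 6 of 6 below) and *Lum* in KO (−0.98, SE 0.142, q = 5.3e-05, 6 of 6 below). The part of these lists in the DHT results of the members was not tested. In gastrocnemius the fibroblast sum averaged 1944 CPM in WT-sham, 1782 in WT-ORX, 1619 in KO-sham and 2139 in KO-ORX, with 1 of 5 genes above 0 with ORX in WT and 4 of 5 in KO. The adipocyte sum there averaged 319.2 CPM in WT-sham, 304.9 in WT-ORX, 384.5 in KO-sham and 386.2 in KO-ORX, and the endothelial sum 212.9, 208.1, 224.1 and 233.8 CPM. Between genotypes after ORX, 5 of 6 adipocyte and 5 of 5 endothelial markers were above 0 with 0 called, and 3 and 1 had an unadjusted p under 0.05 (18.9% of all genes). Under DHT 6 of 6 adipocyte and 3 of 5 endothelial markers were above 0 in KO against WT, also with 0 called. These tallies were 6 of 6 and 5 of 5 in sham and 5 of 6 and 5 of 5 with empty implants, again with 0 called. For genotype in sham DESeq2 called 2 of 5 fibroblast markers, against 0 in edgeR. *Lum* rose with ORX in WT (0.59, SE 0.0889, q = 3.6e-05, 6 of 6 above) and KO (0.57, SE 0.0933, q = 2.0e-04, 5 of 5 above), and *Pdgfra* fell in WT (−0.23, SE 0.0585, q = 0.00982, 6 of 6 below). The leukocyte marker *Csf1r* fell with ORX in WT (−0.31, SE 0.0703, q = 0.00414, 6 of 6 below) and was lower in KO than in WT in sham (−0.29, SE 0.0709, q = 0.00748, 6 of 6 below the WT mean). Of the 5 leukocyte markers 3 were above 0 with ORX in WT and 0 for genotype in sham. The leukocyte sum averaged 61.67 CPM in WT-sham (54.65 to 66.94), 60.41 in WT-ORX (52.67 to 71.18), 53.15 in KO-sham (45.42 to 60.75) and 57.17 in KO-ORX (50.98 to 64.98). In spinalis it was 53.57 CPM in WT-Empty (43.82 to 66.09), 56.97 in WT-DHT (45.94 to 69.44), 68.96 in KO-Empty (39.65 to 118.9, with 5 of 5 markers above 0 against WT-Empty and 0 called) and 57.1 in KO-DHT (49.55 to 64.74).

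Red blood cell markers, read because *Ampd3* is known from those cells, had *Hbb-bs* as the most abundant at 252 CPM in gastrocnemius and 119 CPM in spinalis. Their sum averaged 415.6 CPM in WT-sham (244.2 to 602.6 across libraries), 316.8 in WT-ORX (235.9 to 452.4), 437.4 in KO-sham (275.6 to 691.8) and 436.2 in KO-ORX (287.9 to 531.3). In spinalis it was 154.5 CPM in WT-Empty (66.81 to 274.7), 257 in WT-DHT (154.9 to 383.1), 282.1 in KO-Empty (99.93 to 704.2) and 194.5 in KO-DHT (153 to 216.6). In WT the mean sum was lower with ORX and higher with DHT, whereas *Ampd3* was higher with ORX and lower with DHT. In KO the mean sum was lower with DHT, as the mean of *Ampd3* was, with 0 of 5 markers above 0, and the ranges of the sums overlapped in each of these comparisons. The part of red blood cells in the *Ampd3* results was not tested. Of the 5 genes 0 were called in any comparison by edgeR, DESeq2 or limma-voom. At an unadjusted p under 0.05 edgeR had 2 with ORX in WT, 1 with DHT in WT, 1 with DHT in KO and 0 with ORX in KO. It had 4 each for genotype with empty implants and for genotype by DHT, at median log2 values of 0.92 and −1.27, 1 each for genotype after ORX, genotype under DHT and genotype by ORX, and 0 for genotype in sham. Of all genes 22.3% were under 0.05 with ORX in WT, 24.5% with ORX in KO, 29.8% with DHT in WT, 25.2% with DHT in KO, 23.4% for genotype with empty implants and 15.1% for genotype by DHT. The 4 Schwann cell markers, with *Mbp* the most abundant at 22.0 and 15.5 CPM, also gave 0 calls by any of the tools, with 1 at an unadjusted p under 0.05 in edgeR, for DHT in WT.

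The summed muscle fiber markers, which include *Ckm*, had lower means in KO than in WT in each setting, while single markers went both ways. The sum averaged 99350 CPM in WT-sham, 102100 in WT-ORX, 90770 in KO-sham and 82900 in KO-ORX, and 149100 and 126600 CPM in WT-Empty and KO-Empty against 142900 and 125000 in WT-DHT and KO-DHT. After ORX 4 of the 10 were called, all lower in KO, namely *Acta1* (−0.50, SE 0.0586, q = 2.4e-06, 5 of 5 below the WT range), *Tnnt3* (−0.41, SE 0.0491, q = 3.6e-06, 5 of 5), *Ryr1* (−0.39, SE 0.0884, q = 0.00505, 5 of 5) and *Ckm* itself, with 5 of the 10 above 0. In sham *Acta1* alone was called, and it was lower in KO (−0.37, SE 0.0556, q = 5.8e-05, 6 of 6). In spinalis *Actn2* was higher in KO with empty implants (0.64, SE 0.132, q = 0.00306, 5 of 5 above the WT range) and under DHT (0.65, SE 0.121, q = 3.6e-04, 6 of 6), whereas *Tnnt3* was lower with empty implants (−0.37, SE 0.084, q = 0.0062, 5 of 5) and *Acta1* under DHT (−0.51, SE 0.0946, q = 3.3e-04, 5 of 6 below the range). With ORX edgeR called 2 of 10 in each genotype. *Myh1* fell in WT (−0.61, SE 0.141, q = 0.00499, 6 of 6 below the sham mean) and in KO (−0.61, SE 0.149, q = 0.00743, 5 of 5 below the range), *Ryr1* rose in WT (0.33, SE 0.0839, q = 0.00972, 6 of 6 above the sham mean) and *Tnnt3* fell in KO (−0.20, SE 0.049, q = 0.00872, 5 of 5 below the range). The part of these markers in the results of the members was not tested. With DHT edgeR called 0 of 10 in WT and in KO, with 2 and 4 at an unadjusted p under 0.05, 0 calls by DESeq2 and 0 and 1 by limma-voom.

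Among 7817 genes whose group means of log2 CPM averaged at least 3 in each muscle, which leaves out *Ampd2* and *Nt5c1a*, *BC005624*, *Stk16*, *Gpd1l*, *Mtrex* and *A930016O22Rik* had the pattern most like that of *Ampd1*. The measure was Pearson's r over the 8 group means of log2 CPM, each centered on its experiment, and ran from 0.985 down to 0.97 in this order. It is a description over group means that share libraries and carries no test. The deviations of *BC005624* ran only from −0.08 in WT-sham to 0.06 in WT-Empty on the log2 scale, and those of *A930016O22Rik*, the antisense neighbour of *Ckm*, from −0.25 in WT-DHT to 0.13 in WT-Empty. Of the members, *Ampd3* reached 0.818 and *Adk* 0.737, which placed them only at ranks 258 and 562 among these genes. *Adsl* stood at 0.306, *Ckm* at 0.015, *Adssl1* at −0.423, *Ckmt2* at −0.463 and *Ak1* at −0.486.

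Promoter windows of 300 bases across a gene's start, from RefSeq on GRCm38.p6, were found for 9 of 10 members, as 16 windows, with *Ampd1* not among them. Letters searched on both strands were AGAACA, a half-site of the androgen and glucocorticoid receptors, AGGTCA, a half-site of many nuclear receptors, CANNTG, the E-box, and the core of MEF2 sites, which is CTA and TAG with 4 bases between. They occur in 19.0%, 16.3%, 72.3% and 3.69% of all 32851 windows. AGAACA was found in the *Adssl1* window only, and AGGTCA in that window and in 2 of the 4 *Ak1* windows. The windows of *Ckmt2* and *Ampd3* are shown, since their fold changes lay on opposite sides of 0 with both treatments, and capitals mark the matches. The *Ckmt2* window (chr13:91876836-91877135, minus strand) holds 4 E-box matches. *Ampd3* has windows at chr7:110768372-110768671, chr7:110772354-110772653 and chr7:110773386-110773685, all on the plus strand, with 1, 3 and 0 E-box matches and 1 match to the MEF2 core in the second. A match describes letters and not binding.
Ckmt2: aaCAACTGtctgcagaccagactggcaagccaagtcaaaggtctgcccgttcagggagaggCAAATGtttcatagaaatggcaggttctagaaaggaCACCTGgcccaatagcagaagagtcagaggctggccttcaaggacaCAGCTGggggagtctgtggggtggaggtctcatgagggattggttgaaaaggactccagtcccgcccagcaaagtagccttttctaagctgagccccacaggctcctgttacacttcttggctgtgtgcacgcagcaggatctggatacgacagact
Ampd3 window 1: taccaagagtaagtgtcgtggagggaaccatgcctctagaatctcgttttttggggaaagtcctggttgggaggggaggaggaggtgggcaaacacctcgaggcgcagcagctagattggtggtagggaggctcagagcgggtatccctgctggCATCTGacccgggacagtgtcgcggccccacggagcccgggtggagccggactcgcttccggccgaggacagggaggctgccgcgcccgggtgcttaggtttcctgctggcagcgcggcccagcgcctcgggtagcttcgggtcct
Ampd3 window 2: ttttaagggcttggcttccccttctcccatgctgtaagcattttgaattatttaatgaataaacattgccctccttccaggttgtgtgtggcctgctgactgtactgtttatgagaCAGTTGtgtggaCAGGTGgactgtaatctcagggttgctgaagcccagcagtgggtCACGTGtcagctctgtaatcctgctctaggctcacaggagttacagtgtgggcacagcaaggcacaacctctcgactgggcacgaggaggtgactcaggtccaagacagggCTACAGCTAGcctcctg
Ampd3 window 3: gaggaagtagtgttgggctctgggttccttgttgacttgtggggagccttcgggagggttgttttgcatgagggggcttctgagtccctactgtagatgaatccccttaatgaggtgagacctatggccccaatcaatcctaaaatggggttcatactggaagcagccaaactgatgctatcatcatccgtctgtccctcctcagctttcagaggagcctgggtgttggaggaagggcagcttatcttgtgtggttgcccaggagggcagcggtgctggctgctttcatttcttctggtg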

How the data were processed

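RNA of mouse gastrocnemius (ORX) and spinalis (DHT) was sequenced from stranded total RNA libraries. Per the submitters' processing notes, reads were aligned to GRCm39 with STAR 2.7.1b, duplicates were marked with Picard 2.20.2 and reads were counted with featureCounts of Subread 2.0.0. The strand setting of the counting is not given in the sources used here. The deposited values are whole-number counts per Ensembl gene, without normalization. The sample labels do not state that each library came from its own mouse, so p-values measure the spread between libraries. Of 46 samples described, 45 had a column and were used. Column names gave group and replicate number in the ORX table and the group and a code, but no replicate number, in the DHT table.

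Gene symbols were matched for 17433 of 17514 and 16920 of 16987 genes. Exon lengths and overlaps came from GENCODE M21 on GRCm38, another build than that of the counts, and no coordinate was carried between them. Libraries were scaled by TMM and each experiment was fitted by itself in edgeR 4.0.16 (R 4.3.3) with a mean for each of 4 groups, quasi-likelihood F tests and Benjamini-Hochberg adjustment over all genes. Thresholds were q ≤ 0.01 for treatment and genotype and q ≤ 0.05 for the interaction, computed as the difference of treatment effects. The SE of a log2 fold change was its size over the root of F. Requiring 0.5 CPM in 2 or more libraries removed 0 genes. The code was tested on simulated data.

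The members, lists and markers were chosen with earlier results of these data known. Named genes were the 10 members in every comparison, *Actn3*, at most 3 called genes with the smallest p from each pathway list and comparison, and the 5 genes most like *Ampd1*. Marker genes were named where they were called, a choice made after their values were seen. Alternatives were library-size scaling, DESeq2 1.42.0, limma-voom (limma 3.58.1), a filter of 10 counts in every library, no filter, thinned counts, only the groups compared, a replicate block and each library left out. Plots used matplotlib 3.10.9 under Python 3.11.15.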

Additional observations from a re-analysis of the deposited data

Results flagged for a closer look

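In a check of 80 groups, each 1 member in 1 of the 8 sample groups, 2 held a library far from the others, and chance sets apart about 1 in 20 such groups. *Adssl1* in KO-sham replicate 1 reached 556 CPM, with the next library at 465 and the lowest at 425, a gap of 0.697 of the group's range, above Dixon's critical value for 6 libraries. Without that library the log2 fold change of *Adssl1* with ORX in KO was −0.19. *Ckmt2* in WT-ORX replicate 6 was the lowest at 546 CPM, with the next library at 639 and the highest at 685, a gap of 0.666 of the range, also above that value.

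The response of *Adk* to DHT differed between genotypes, with a log2 value of 0.507 for the difference (edgeR, q = 0.00913), made up of −0.39 in WT, where 6 of 6 libraries were below the Empty range, and 0.11 in KO, where 6 of 6 were above the Empty mean.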

How the results depend on the processing

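Of 768 comparisons of tested single genes under 7 alternatives, 718 kept their direction and side of the threshold, 32 lost a call, 7 gained one and 11 changed sign. With 1 library left out these counts were 2595, 97, 7 and 41 of 2740. Fits with no filter are not counted, since the filter removed 0 genes and they repeat the same fit, and *Ampd1* has no test. The causes of these changes were not tested.

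With library-size scaling, log2 values changed sign for *Ckm* with ORX in KO (0.020), for genotype after ORX in *Adk* (0.026) and *Adssl1* (0.021), for genotype by ORX in *Ampd3* (0.017) and *Ckmt2* (0.023), for genotype with empty implants in *Adk* (0.017) and for genotype under DHT in *Ak1* (0.039) and *Ckm* (0.091). Members called came to 3 with ORX in WT (from 2), 2 with ORX in KO (from 3), 1 for genotype with empty implants (from 0, with 533 of all genes called), 3 for genotype under DHT (from 4) and 2 for genotype by DHT (from 1, with 515 of all genes called). That scaling moved the median of all genes with ORX in KO from 0.01 to 0.12. It moved the share of higher calls among all genes from 37.5% to 54.4% for ORX in WT, 35.7% to 78.6% for ORX in KO, 28.2% to 46.9% for genotype after ORX, 75% to 100% for genotype by ORX, 58.8% to 43.6% for DHT in WT, 41.3% to 52.9% for genotype with empty implants, 44.1% to 65.3% for genotype under DHT and 41.5% to 55.1% for genotype by DHT.

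DESeq2 called 127 genes for genotype by ORX against 4 in edgeR and 1201 with DHT in KO against 784, and it called 1 member for genotype in sham (*Adk*), 2 with DHT in KO (*Ckmt2* and *Ampd3*) and 1 for genotype with empty implants (*Ckmt2*). With limma-voom 10 genes were called for genotype by ORX, and *Ampd2* with ORX in WT (−0.010) and *Ckm* for genotype under DHT (0.001) changed sign, as did *Nt5c1a* for genotype with empty implants in thinned counts (−0.014). With only the groups compared, ORX in KO gave 485 genes and 1 member against 975 and 3, genotype after ORX 0 members, DHT in KO 505 genes and 2 members, and genotype with empty implants 290 genes against 722.

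With each library left out in turn, members called ran from 1 to 3 for ORX in KO, 0 to 1 for genotype in sham, 0 to 1 after ORX, 0 to 1 with empty implants, 2 to 4 under DHT and 1 to 2 for genotype by DHT. All genes called ran from 589 to 1116 for ORX in KO, 2 to 38 for genotype by ORX and 450 to 700 for genotype with empty implants. Log2 values that crossed 0 ran, for ORX in WT, from −0.060 to 0.084 in *Ampd2* and −0.006 to 0.048 in *Ak1*. For genotype after ORX they ran from −0.046 to 0.003 in *Adssl1* and −0.047 to 0.001 in *Adk*, and for genotype by ORX from −0.086 to 0.000 in *Ampd3* and −0.093 to 0.016 in *Ckmt2*. For DHT they ran from −0.085 to 0.014 in *Ckm* in WT and −0.124 to 0.030 in *Ampd2* in KO. *Ampd1*, which has no test, ran from −0.013 to 0.055 with ORX in KO and from −0.085 to 0.013 with DHT in KO. With empty implants the genotype values of the tested members ran from −0.044 to 0.121 in *Nt5c1a*, −0.067 to 0.117 in *Ampd2*, −0.063 to 0.057 in *Adk* and −0.092 to 0.025 in *Adsl*, and under DHT from −0.055 to 0.041 in *Ckm*. For genotype by DHT they ran from −0.022 to 0.081 in *Ak1*, −0.019 to 0.099 in *Ckmt2* and −0.024 to 0.137 in *Nt5c1a*.

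A replicate block, with the replicate numbers of the ORX labels, gave 934, 914, 921, 627 and 5 called genes for ORX in WT, ORX in KO, genotype in sham, genotype after ORX and genotype by ORX, and 2, 3, 0, 1 and 0 called members. Of the single genes named, *Guk1* with ORX in WT (q = 0.0106) and *Slc6a8* for genotype after ORX (q = 0.0102) lost their call. Whether the numbers pair the libraries was not settled. Of 33 pairs with the same number 6 had a correlation of deviations over 0.1. The median correlation was 0.00697 over pairs with the same number and −0.00881 over pairs with different numbers. Of 23 libraries 7 were closest to their own number, and no chance rate was computed for that count. The columns of the DHT table carry no replicate numbers, so no block was fitted there. At this depth no library held fewer than 76.0 counts of *Ampd2*, the least abundant member.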
